A study of Mus musculus with 28 samples.

Results

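The 6 libraries described here map 2 opposite marks on lysine 9 of histone H3, trimethylation (H3K9me3) and acetylation (H3K9Ac), in MC38 Setdb1 KO cells. They were chosen by their labels: 3 ChIP-seq island files of H3K9me3 and 3 of H3K9Ac, 6 of the 28 samples of the series, of which 24 have an island file. MC38 is a mouse colon adenocarcinoma line, and the KO cells had been transduced with a CRISPR construct carrying a Setdb1 guide. The MC38 control cells carry the same construct without a guide, and both were grown in medium with puromycin. A matching set exists for B16, a mouse melanoma line. The labels do not say whether the KO cells are 1 clone or a pool, nor whether the replicates are separate cultures, so each p-value reflects how far these samples spread, and that spread may be technical. Chromatin came from 8000000 cells per H3K9me3 library and from 2000000 cells per H3K9Ac library, and a different antibody was used for each mark, so mark, input amount and antibody cannot be told apart.

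Setdb1 is a histone methyltransferase that writes H3K9me3. It is brought to chromatin by Trim28, which in turn is recruited by KRAB zinc finger proteins bound to DNA, many of them at endogenous retroviruses. H3K9me3 is bound by HP1 proteins and marks silent chromatin, whereas H3K9Ac is written by acetyltransferases such as Kat2a at the starts of active genes. One lysine cannot carry both marks at a time, but a gene can carry them in different stretches, on different chromosome copies or in different cells.

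An island is a stretch of the genome in which the submitters' peak caller found more reads than its background, built from 200 bp bins. The H3K9me3 libraries held 45414798, 27482458 and 18990128 reads in islands, in replicates 1 to 3, and the H3K9Ac libraries held 45082277, 40860632 and 28451633 reads. H3K9me3 replicate 3 stood apart: its 41010 islands covered 215 Mb, against 76298 islands over 563 Mb and 77032 islands over 442 Mb in replicates 1 and 2. Of the length in replicate 3, 63.4% was also under islands in replicate 1 and 74.9% in replicate 2. The H3K9Ac libraries had 74837, 64997 and 81531 islands over 441, 440 and 442 Mb. The 3 acetylation libraries thus covered nearly the same length, while the covered length of the trimethylation libraries spread 2.62-fold.

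Island length did not separate the marks. The median H3K9me3 island was 4600, 4400 and 4000 bp long in the 3 libraries, and the median H3K9Ac island 3400, 4200 and 3400 bp. The groups overlapped, and the difference in means of 667 bp did not pass an exact two-sided permutation test (p = 0.2, 0.6 after Benjamini-Hochberg adjustment over 9 library summaries; the smallest p that 3 against 3 libraries can give is 0.1). Mean lengths were 7384, 5739 and 5252 bp for H3K9me3 and 5892, 6773 and 5422 bp for H3K9Ac (exact permutation p = 1), and the sign of their difference turned with the filter on islands and with the libraries used, as listed in the closing section. Islands of at least 10 kb held 51.5, 31.0 and 28.9% of the length under H3K9me3 and 47.6, 50.5 and 40.3% of that under H3K9Ac (exact permutation p = 0.4). Without H3K9me3 replicate 3, the mean covered length of H3K9me3 was above that of H3K9Ac by 61.7 Mb, whereas with all libraries it was below it by 34.1 Mb (exact permutation p = 1). Island reads per kb of island were 80.6, 62.2 and 88.2 for H3K9me3 and 102, 92.8 and 64.4 for H3K9Ac, again with overlap (exact permutation p = 0.5).

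**Figure D1:**
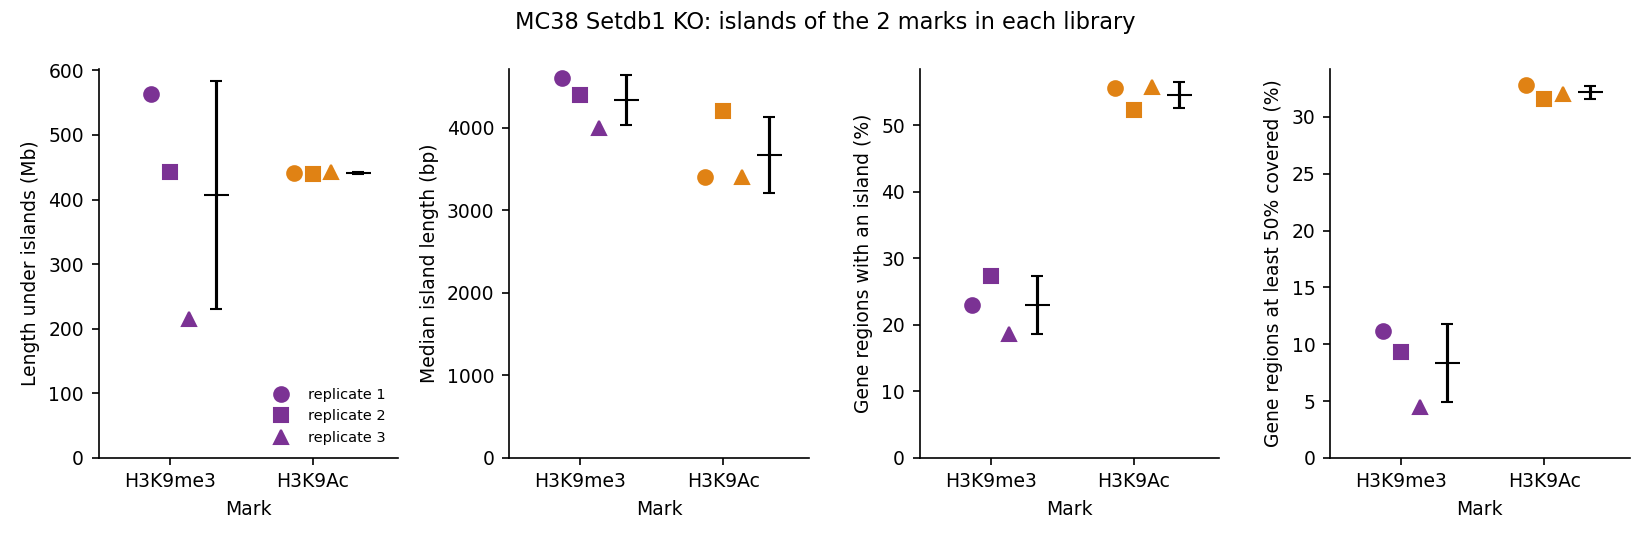
Each panel plots 1 library summary for the 3 H3K9me3 and 3 H3K9Ac libraries of MC38 Setdb1 KO cells (points, shaped by replicate) with the mean and SD (black). Covered length and median island length overlap between the marks, while every H3K9Ac library lies above every H3K9me3 library for the share of gene regions with an island (52.3 to 55.8% against 18.6 to 27.4%) and for the share covered by at least 50%.

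The marks differed in where the islands lay. Of the length under H3K9Ac, 78.6, 79.5 and 77.5% was inside annotated genes, against 29.7, 32.9 and 33.7% of the length under H3K9me3. These groups did not overlap, and no test was run on this measure. A gene region was taken as the gene with 2 kb on both sides, over 49554 genes on chromosomes 1 to 19 and X. H3K9Ac islands reached at least 200 bp, or 1 bin, of 55.7, 52.3 and 55.8% of gene regions, and H3K9me3 islands 22.9, 27.4 and 18.6%. Regions covered by at least 50% made up 32.8, 31.6 and 32.1% for H3K9Ac and 11.2, 9.34 and 4.50% for H3K9me3. In both measures the groups did not overlap, and the exact permutation p was 0.1, the smallest this design allows, or 0.45 after adjustment.

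Stretches shared by all 3 libraries were fewer for H3K9me3. They summed to 118 Mb, 15.5% of the 763 Mb under H3K9me3 in any library, and to 285 Mb, 46.7% of 610 Mb, for H3K9Ac. The first sum is limited by H3K9me3 replicate 3, which covered 215 Mb. Taken by pairs, H3K9me3 replicates 1 and 2, 1 and 3, and 2 and 3 shared 38.2, 21.3 and 32.5% of their joint length. The same pairs of H3K9Ac shared 63.1, 62.7 and 56.1%. The longest stretch of H3K9me3 in all 3 libraries, 144 kb at chr3:106122001-106266200 (mm10), spanned Chil3, Chil4 and part of Chia1, chitinase-family genes of macrophages and epithelia. The next, 89.0 kb on the same chromosome, lay at Vmn2r3, a vomeronasal receptor gene, and one of 76.8 kb on chromosome 4 lay at the zinc finger gene Zfp982. The longest stretch of H3K9Ac, 269 kb at chr15:61957801-62226600, held Myc, the growth-promoting transcription factor gene, and the next, 165 kb on chromosome 2, held 9 protein-coding genes, among them Notch1. These stretches and the genes in them were named after their values were seen.

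The marks hardly ever lay on the same bases. In same-numbered libraries 1.12, 2.34 and 8.29 Mb were under islands of both, which is 0.198, 0.529 and 3.85% of the H3K9me3 length and 0.253, 0.531 and 1.88% of the H3K9Ac length. The third pair was the highest of these. Over all 9 pairs of libraries, H3K9Ac replicate 3 shared the most length with every H3K9me3 library, 2.31, 9.59 and 8.29 Mb with replicates 1 to 3. The mean share for H3K9me3 was above that for H3K9Ac by 0.639 percentage points (exact permutation p = 0.9), and without H3K9me3 replicate 3 the difference was -0.523. Only 0.0616 Mb was under both marks in all 6 libraries, in 83 stretches of at most 5.2 kb, and in the control cells 0.179 Mb was. One of the longest, 2.8 kb on chromosome 3, lay at Cd1d1, which encodes a lipid-presenting relative of MHC class I, and another, 2.6 kb on chromosome 4, at the zinc finger gene Zfp984.

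Genes were then sorted by mark. A gene region that had at least 200 bp of island in all 3 libraries of a mark was taken to carry it, and one with less in all 3 to lack it; the remaining genes, whose libraries disagreed, are called mixed. H3K9Ac without H3K9me3 was found at 19492 of 49554 gene regions (39.3%) and H3K9me3 without H3K9Ac at 2925 (5.90%). Both marks were found at 1616 (3.26%), neither at 8659 (17.5%), and 16862 (34.0%) were mixed. Genes with both marks made up 30.0% of the 5391 genes carrying H3K9me3 and 6.77% of the 23867 carrying H3K9Ac. Among 21631 protein-coding genes, 11972 (55.3%) carried H3K9Ac alone, 762 (3.52%) H3K9me3 alone, 1120 (5.18%) both and 2044 (9.45%) neither. The count for H3K9me3 alone rests on the smallest library: without H3K9me3 replicate 3 it was 5744 instead of 2925. The count for both marks was 2431 without H3K9me3 replicate 1, and 820 when the 25% of islands with the fewest reads was dropped from every library.

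Few genes carried both marks at the start. Within 2 kb of the start of the 26794 genes with a known start, 12899 carried H3K9Ac alone, 775 H3K9me3 alone, 5580 neither and 51 both. Over 17274 protein-coding genes, the start itself was under H3K9Ac in 58.7, 55.8 and 56.8% and under H3K9me3 in 6.59, 4.92 and 2.55%. H3K9Ac was lower at 8 kb upstream, where 36.8, 32.5 and 35.9% of the genes were under an island. H3K9me3 was higher there, at 10.0, 12.7 and 7.38%. In the start window acetylation thus peaked and trimethylation dipped in each of its 3 libraries.

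Promoter sequences of 4 genes show the classes. They run 5′ to 3′ on the gene's strand from 250 bases before to 50 bases after the start, from RefSeq on GRCm38.p6, with each CG in capitals. Hoxa10, a body-patterning transcription factor gene at chr6:52240805-52241104 (minus strand), is shown because its region had among the densest acetylation, and all 300 bases were under H3K9Ac islands and none under H3K9me3 in every library. Chil3, at chr3:106167515-106167814 (minus strand), is shown as its opposite, with all 300 bases under H3K9me3 and none under H3K9Ac in every library. The zinc finger genes Zfp958, at chr8:4612920-4613219 (plus strand), and Zfp738, at chr13:67683463-67683762 (minus strand), belong to the class with both marks. Their windows were wholly under H3K9Ac in every library, with no H3K9me3.
Hoxa10: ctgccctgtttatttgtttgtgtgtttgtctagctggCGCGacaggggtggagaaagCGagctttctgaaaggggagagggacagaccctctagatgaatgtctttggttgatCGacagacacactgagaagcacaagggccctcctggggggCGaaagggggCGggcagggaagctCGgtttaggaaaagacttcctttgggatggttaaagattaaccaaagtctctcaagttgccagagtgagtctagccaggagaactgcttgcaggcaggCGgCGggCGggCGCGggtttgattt
Chil3: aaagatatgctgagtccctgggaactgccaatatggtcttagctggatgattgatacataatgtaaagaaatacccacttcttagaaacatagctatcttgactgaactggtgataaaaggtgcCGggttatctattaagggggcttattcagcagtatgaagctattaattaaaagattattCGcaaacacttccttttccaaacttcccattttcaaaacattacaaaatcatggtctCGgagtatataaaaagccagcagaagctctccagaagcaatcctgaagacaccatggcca
Zfp958: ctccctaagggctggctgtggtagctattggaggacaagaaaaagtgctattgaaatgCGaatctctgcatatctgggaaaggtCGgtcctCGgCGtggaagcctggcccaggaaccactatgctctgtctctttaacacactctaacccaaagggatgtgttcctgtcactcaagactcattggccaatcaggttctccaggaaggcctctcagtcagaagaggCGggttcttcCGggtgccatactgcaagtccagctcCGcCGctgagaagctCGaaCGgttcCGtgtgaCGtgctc
Zfp738: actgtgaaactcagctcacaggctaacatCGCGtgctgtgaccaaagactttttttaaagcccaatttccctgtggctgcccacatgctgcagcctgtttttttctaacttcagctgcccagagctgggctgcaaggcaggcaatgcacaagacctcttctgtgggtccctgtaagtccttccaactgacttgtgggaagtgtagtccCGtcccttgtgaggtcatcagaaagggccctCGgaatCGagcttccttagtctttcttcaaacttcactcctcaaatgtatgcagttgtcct
The Hoxa10 and Zfp958 windows each hold 12 CG, the Zfp738 window 5 and the Chil3 window 3.

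The classes differed in the same direction over all their promoters. The median number of CG per 300-base promoter was 20 over 9615 protein-coding genes with H3K9Ac alone, 12 over 887 with both marks, 3 over 1587 with neither and 2 over 644 with H3K9me3 alone, against 14 over all 17274. Median G+C content was 60.7, 55.7, 46.3 and 45.3% in the same order. The motif TATAAA, searched on both strands, was present in 7.71% of promoters with H3K9Ac alone, 9.47% with both, 23.2% with neither and 27.2% with H3K9me3 alone, against 13.4% of all 17274 promoters. Gene length set the class with both marks apart from the others. The median protein-coding gene with both was 116 kb long, against 18.8 kb with H3K9me3 alone, 18.5 kb with H3K9Ac alone, 4.16 kb with neither and 17.3 kb over all. These are descriptions, with no test over genes.

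Within genes of the class with both marks, the marks mostly took separate stretches. Of the 1616 genes, 235, 363 and 513 had at least 200 bp under both marks at the same bases in the same-numbered libraries, or 14.54, 22.5 and 31.8%. H3K9Ac covered a median 12.2, 11.6 and 13.9% of the region and H3K9me3 8.46, 20.4 and 13.5%. Of the 1235 genes with a known start, 525 had H3K9Ac in the start window in all 3 libraries and 160 had H3K9me3 there.

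Read levels at gene regions were compared with edgeR's quasi-likelihood test with Benjamini-Hochberg adjustment, on island reads scaled to each library's total of island reads. At an adjusted p below 0.05, 3424 of 40132 regions tested had more H3K9me3 (8.53%) and 19802 had more H3K9Ac (49.3%). The first count was 5756 without H3K9me3 replicate 3 and 7406 with DESeq2. Most of these calls are regions with islands of a single mark, where the class already sets the direction. Of the regions with H3K9Ac alone 19426 of 19492 were called, and of those with H3K9me3 alone 2916 of 2925. The edgeR counts for gene lists below therefore largely restate the classes and are not separate support. Among the 1616 regions with both marks, 416 had more H3K9me3, 220 had more H3K9Ac and 980 did not pass, with a median log2 ratio of H3K9me3 to H3K9Ac of 0.75. Levels of single genes are given below as RPM, island reads in the region per 1000000 island reads of the library, and where a mark had no island in any library no ratio is given.

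The genes with the densest H3K9me3 and no H3K9Ac lay in few places. Zfp981, a zinc finger gene at chr4:146502000-146539395, had 197, 197 and 328 RPM of H3K9me3 in the 3 libraries and no H3K9Ac island in any. Its neighbour Zfp992 had 119, 125 and 206 RPM. Chil3, at chr3:106147554-106167564, had 89.8, 104 and 183 RPM, Chil4 82.2, 95.0 and 167 RPM and Chia1, an acidic chitinase gene, 74.0, 85.7 and 112 RPM. In each of these genes replicate 3 was highest, the library with the fewest island reads and the least covered length. An island's reads are spread evenly over its length, so genes under 1 island repeat its level. Chil3 and Chil4 both had a mean of 5.22 RPM per kb and are not separate readings. Mucl2, a mucin-like gene on chromosome 15, had 17.6, 23.1 and 43.3 RPM over a gene of 3458 bp. By the class rule, none of these 6 genes had 200 bp of H3K9Ac island in any of the 3 libraries. H3K9me3 covered between 71.0 and 100% of the region in each library at every one of them.

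The densest H3K9Ac without H3K9me3 lay at Hox genes and Myc. Hoxa10 had 92.7, 82.1 and 73.8 RPM of H3K9Ac, with the whole region covered in every library. Hoxa9 had 56.2, 49.7 and 44.7 RPM, Hoxa11 52.3, 46.3 and 39.4 RPM, and Hoxa7 41.7, 41.8 and 37.5 RPM. Hoxa9 and Hoxa10 both had a mean of 6.07 RPM per kb, since an island's reads are spread evenly over its length. Hoxc11 had 35.8, 36.2 and 33.8 RPM. Myc, at chr15:61985341-61990361, had 39.8, 60.6 and 57.9 RPM, with replicate 1 lowest. These values are its part of islands 281, 269 and 311 kb long in replicates 1 to 3. None of the 6 genes had an H3K9me3 island. Of 39 Hox genes, 31 (79.5%) carried H3K9Ac alone, against 55.3% of protein-coding genes. By edgeR 32 of 38 tested had more H3K9Ac, against 12264 of 19442 protein-coding genes tested, a count that largely restates the class. Of the other 8, 6 were mixed (Hoxb2, Hoxb5, Hoxb8, Hoxb9, Hoxb13 and Hoxd11), Hoxb1 had neither mark, and Hoxd1 had 2.08, 3.69 and 6.61 RPM of H3K9me3 and no H3K9Ac island.

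Genes at the upper end of both marks were led by zinc finger genes. Zfp958, at chr8:4613170-4632572, had 31.5, 44.3 and 107 RPM of H3K9me3 and 31.9, 33.2 and 24.5 RPM of H3K9Ac. Its log2 ratio of H3K9me3 to H3K9Ac was 1.02 ± 0.50 (SE) and did not pass (adjusted p = 0.126, edgeR). Zfp738 had 16.96, 22.4 and 80.6 RPM of H3K9me3 and 24, 22.8 and 14.6 RPM of H3K9Ac. Its log2 ratio was 0.97, and -0.06 without H3K9me3 replicate 3. Zfp90 had 11.9, 21.9 and 48.3 RPM of H3K9me3 against 20.4, 15.8 and 13.4 RPM of H3K9Ac. In these 3 genes the marks overlapped in level, with replicate 3 highest in H3K9me3 and lowest in H3K9Ac. Cd1d1, at chr3:86995834-87012358, had 20.7, 47.2 and 79.7 RPM of H3K9me3 and 18.6, 23.8 and 24.6 RPM of H3K9Ac (adjusted p = 0.101, edgeR). Nxnl1, a photoreceptor thioredoxin-like gene, had 5.17, 8.11 and 30.1 RPM of H3K9me3 and 25.01, 19.3 and 16.9 RPM of H3K9Ac. Cib3, which encodes a calcium-binding protein, had 9.64, 11.6 and 32.1 RPM of H3K9me3 and 0.793, 18.1 and 20.04 RPM of H3K9Ac. Neither of these passed (adjusted p = 0.545 and 0.735, edgeR).

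**Figure D2:**
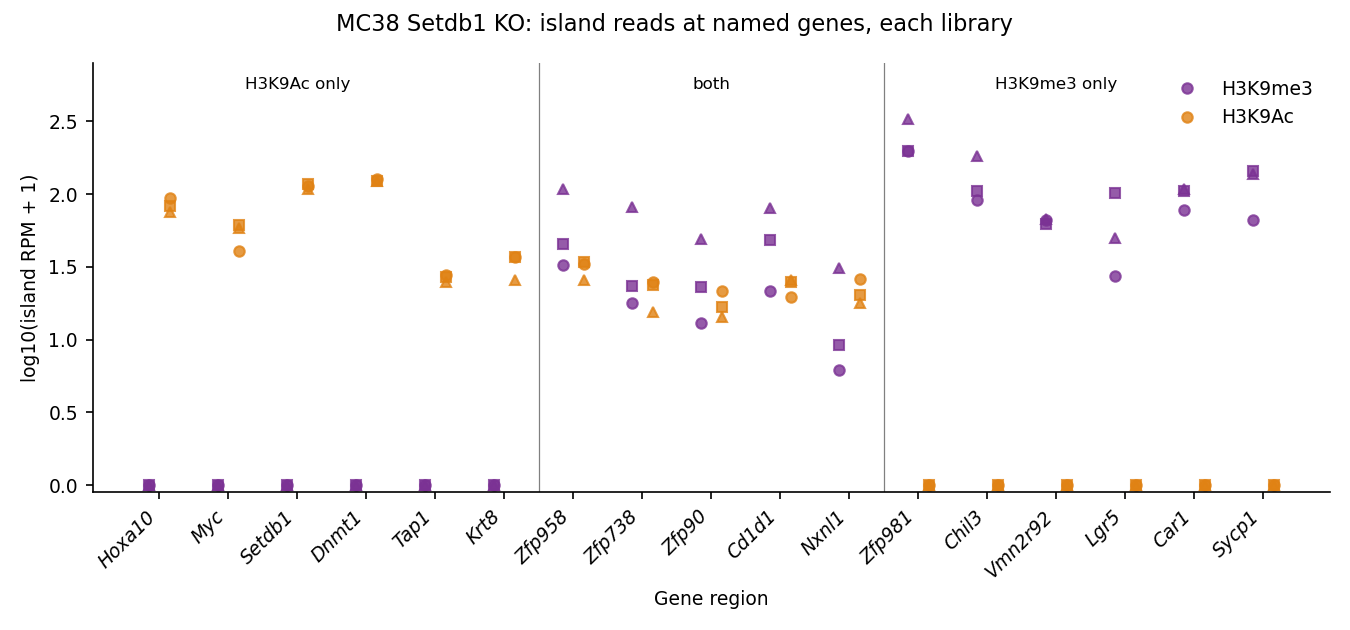
Island reads at 17 gene regions, as log10(RPM + 1), with 1 point per library (shaped by replicate, as circles, squares and triangles for 1, 2 and 3) and a colour per mark; a point at 0 is a library with no island in the region. Genes with 1 mark sit at 0 for the other in all 3 libraries, and at the 5 genes with both marks the levels of the marks overlap, such as 11.9 to 48.3 RPM of H3K9me3 and 13.4 to 20.4 RPM of H3K9Ac at Zfp90.

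Zinc finger genes with both marks mostly carried H3K9Ac and H3K9me3 at opposite ends of the gene. The list holds 430 KRAB and other zinc finger genes, of which 234 lacked H3K9me3 in all 3 libraries. Proteins of the KRAB genes recruit Trim28 and Setdb1. Of the 430, 90 (20.9%) carried both marks, against 5.18% of protein-coding genes, and 215 (50.0%) H3K9Ac alone, against 55.3%. H3K9me3 alone was at 22 (5.12%, against 3.52%) and neither at 14 (3.26%, against 9.45%). Any H3K9me3 island of at least 200 bp was found at 144, 179 and 166 of them, or 33.5, 41.6 and 38.6%, against 19.6, 24.1 and 18.2% of protein-coding genes. H3K9Ac was found at 375, 362 and 364, or 87.2, 84.2 and 84.7%, against 74.5, 71.1 and 74.5%. The count with both marks was 65 with the stricter filter on islands, 139 with 10 kb flanks and between 90 and 111 without 1 library. By edgeR, 57 zinc finger genes had more H3K9me3 and 223 more H3K9Ac of 414 tested. Among all 19442 protein-coding genes tested, 1087 had more H3K9me3 and 12264 more H3K9Ac. Of the 90 with both marks, 22 were on chromosome 13, 21 on chromosome 17 and 13 on chromosome 7. How many of the 430 listed genes lie on each chromosome was not counted, so these numbers show no preference for a chromosome.

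Along the zinc finger genes the marks ran in opposite directions. In 336 zinc finger genes of at least 5 kb, each divided into 20 equal parts, H3K9me3 lay over 5.36, 4.46 and 4.17% of the genes in the first part and over 24.1, 31.0 and 25.9% in part 18, near the end, where it was highest. H3K9Ac lay over 74.4, 75 and 71.7% of the genes in the first part and over 25.9, 24.1 and 24.4% in the last. Over 13367 protein-coding genes of that length, H3K9me3 went from 4.22, 4.53 and 2.67% in the first part to 5.21, 6.13 and 3.52% in the last, and H3K9Ac from 60.9, 59.1 and 58.9% to 48.2, 45.7 and 48.3%. Of the 78 zinc finger genes with both marks and a known start, 70 had H3K9Ac in the start window in all 3 libraries and 62 had H3K9me3 in the last 25% of the gene. Only 2 had H3K9Ac in the last 25% in all 3 libraries, and 6 had H3K9me3 in the start window. Among the other 1157 genes with both marks, 455 had H3K9Ac at the start and 565 in the last 25%, and 425 had H3K9me3 in the last 25%. The promoters of Zfp958 and Zfp738 printed above lie at the acetylated end. The 3′ end of such genes, which encodes the zinc finger arrays, is a known site of H3K9me3.

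**Figure D3:**
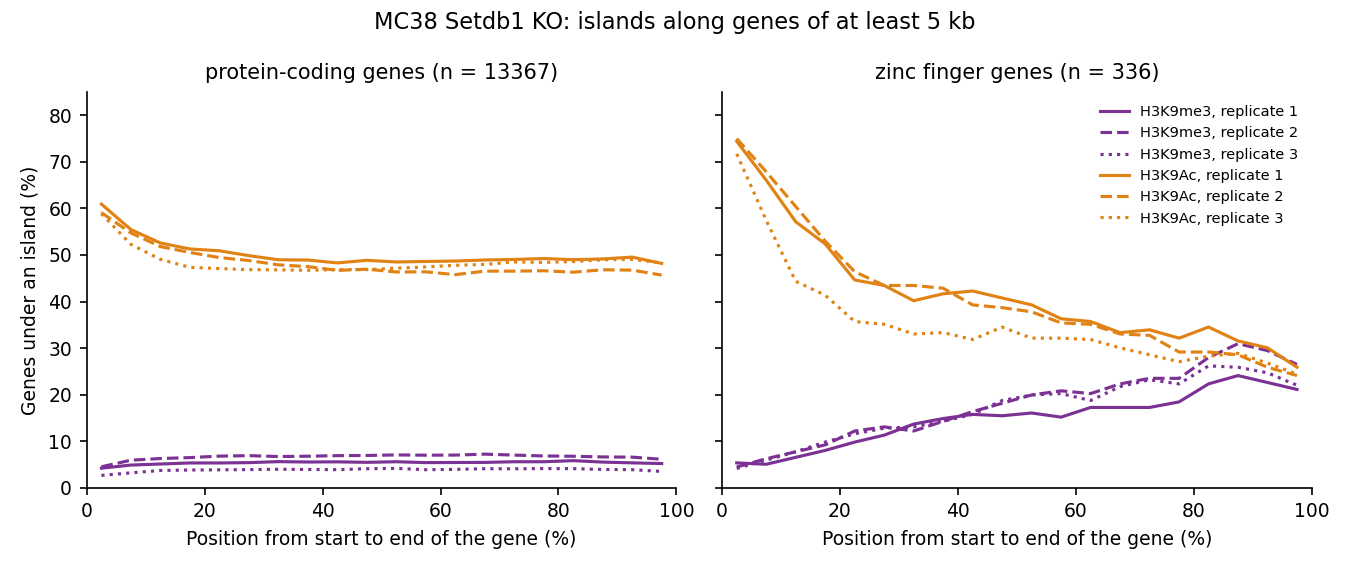
Share of genes under an island at each of 20 equal parts from start to end, for protein-coding genes (left, 13367) and zinc finger genes (right, 336), with 1 line per library of MC38 Setdb1 KO cells. Over zinc finger genes H3K9Ac runs from 71.7 to 75% in the first part down to 24.1 to 25.9% in the last, while H3K9me3 runs from 4.17 to 5.36% up to 24.1 to 31.0% in part 18.

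Odorant and pheromone receptor genes, which are expressed in sensory neurons and sit in large clusters, carried almost no acetylation. Of 353 vomeronasal receptor genes 69 (19.5%) carried H3K9me3 alone, against 3.52% of protein-coding genes and 5.90% of all gene regions, 3 H3K9Ac alone, 1 both and 124 neither. Of 1109 olfactory receptor genes the numbers were 75 (6.76%), 7, 1 and 266, and 760 were mixed. The olfactory share with H3K9me3 alone was thus near the 5.90% of all gene regions and above the 3.52% of protein-coding genes. The libraries disagreed widely here: an H3K9me3 island was present at 708, 417 and 127 olfactory receptor genes (63.8, 37.6 and 11.5%) in replicates 1 to 3. For vomeronasal receptor genes the numbers were 202, 162 and 89 (57.2, 45.9 and 25.2%). The shares over protein-coding genes were 19.6, 24.1 and 18.2%. Without H3K9me3 replicate 3, H3K9me3 alone was found at 324 olfactory and 132 vomeronasal receptor genes. Acetylation was found at 30, 20 and 48 olfactory receptor genes (2.71, 1.8 and 4.33%) and at 8, 11 and 12 vomeronasal receptor genes (2.27, 3.12 and 3.4%). Its share over protein-coding genes was 74.5, 71.1 and 74.5%. By edgeR 78 of 810 olfactory receptor genes tested had more H3K9me3 and 7 more H3K9Ac. The first share is near the 8.53% of all regions and above that of protein-coding genes, 1087 of 19442 tested. Of 217 vomeronasal receptor genes tested, 74 had more H3K9me3 and 3 more H3K9Ac. Of the 19442 protein-coding genes 1087 and 12264 did. These edgeR counts largely restate the classes. Vmn2r92, at chr17:18151930-18185178, had 65.3, 61.4 and 66.3 RPM of H3K9me3 and no H3K9Ac island, and Olfr1393 had 22.7, 22.6 and 22.9 RPM of H3K9Ac and no H3K9me3 island.

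Genes that every cell uses carried acetylation alone. Of 84 cytosolic ribosomal protein genes 80 did (95.2%), as did 14 of 15 housekeeping genes (93.3%), against 55.3% of protein-coding genes. Gapdh, the glycolytic enzyme gene, had 27.97, 26.7 and 27.6 RPM of H3K9Ac and Actb, which encodes cytoplasmic actin, 40.2, 33.2 and 25.6 RPM. The one ribosomal protein gene with H3K9me3 alone was Rpl10l, a germline copy of Rpl10, with 8.56, 4.73 and 9.81 RPM. A retrocopy shares much of its sequence with its parent gene, so reads at such a gene can be placed at either, which was not tested for Rpl10l.

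Genes of the machinery that sets the marks mostly carried H3K9Ac. Of 25 genes for H3K9 methylation and heterochromatin factors 21 (84%) carried H3K9Ac alone, against 55.3% of protein-coding genes. By edgeR 22 had more H3K9Ac, against 12264 of 19442 protein-coding genes tested, which largely restates the class. Setdb1, at chr3:95323525-95357202, had 113, 116 and 107 RPM of H3K9Ac and no H3K9me3 island. These are reads on its chromatin, which do not check the knockout. Trim28 had 39.0, 34.5 and 27.5 RPM and Dnmt1, the maintenance DNA methyltransferase gene, 125, 122 and 121 RPM. Kdm4d, which encodes an H3K9 demethylase of the testis, carried both, with 8.68, 25.98 and 17.1 RPM of H3K9me3 and 14.3, 11.1 and 19.03 RPM of H3K9Ac. All 14 genes for acetylation and deacetylation factors, among them Hdac1, Hdac3, Kat2a and Kat2b, carried H3K9Ac alone.

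Immune genes are given beside the 55.3% of protein-coding genes with H3K9Ac alone. Of 28 interferon and nucleic acid sensing genes, which respond to viral nucleic acid, 21 (75%) carried H3K9Ac alone, 7 were mixed and none carried H3K9me3 alone or both. Of 16 genes of antigen presentation by MHC class I, 11 (68.8%) carried H3K9Ac alone and 4 were mixed; the first group holds Tap1, the peptide transporter gene, with 26.9, 26.04 and 23.8 RPM. Erap1, which encodes a peptide-trimming enzyme, carried both marks, with 5.50, 7.57 and 13.2 RPM of H3K9me3 and 38.7, 38.3 and 41.3 RPM of H3K9Ac. Of 13 retroviral restriction and receptor genes 11 carried H3K9Ac alone, such as Samhd1, Xpr1 and Zfp809, 1 (Zfp932) both and 1 (Trim5) neither.

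Imprinted genes, expressed from a single parental copy, were spread over the classes. Of 28, 9 carried H3K9Ac alone (32.1%, against 55.3% of protein-coding genes), 4 H3K9me3 alone (14.3%, against 3.52%), 4 both (14.3%, against 5.18%) and 2 neither, and 9 were mixed. Kcnq1ot1, a long noncoding RNA gene, had 75.5, 86.1 and 117 RPM of H3K9me3 and 37.1, 38.8 and 39.5 RPM of H3K9Ac, so that the marks did not overlap in level (log2 ratio 1.27 ± 0.20 SE, adjusted p = 0.00268, edgeR). Gnas, the stimulatory G protein gene, had 7.77, 8.77 and 13.9 RPM of H3K9me3 against 97.8, 86.3 and 72.9 RPM of H3K9Ac. The growth adaptor gene Grb10 had 75.5, 124 and 328 RPM of H3K9me3 against 15.7, 7.95 and 37.7 RPM of H3K9Ac. Airn was the other gene with both. Igf2r, the scavenger receptor for insulin-like growth factor 2, had 167, 198 and 222 RPM of H3K9Ac alone.

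Clustered protocadherins, cell adhesion genes of which many share 3′ exons within a cluster and so share reads, were mostly mixed. Of 57, 37 were mixed (64.9%, against 26.5% of protein-coding genes) and 7 carried both marks (12.3%, against 5.18%). H3K9Ac alone was at 5 (8.77%, against 55.3%), H3K9me3 alone at 1 (1.75%, against 3.52%) and neither at 7 (12.3%, against 9.45%). Without H3K9me3 replicate 3 the number with H3K9Ac alone was 16. Germline genes, silent in most body tissues, had 4 of 27 with H3K9me3 alone (Mael, Sycp1, Piwil1 and Asz1; 14.8%, against 3.52% of protein-coding genes), 7 with H3K9Ac alone (25.9%, against 55.3%), 1 with both, 2 with neither and 13 mixed. Sycp1, which encodes a protein of the synaptonemal complex, had 65.0, 143 and 137 RPM of H3K9me3 and no H3K9Ac island. Of 30 keratin genes of skin and hair, 18 were mixed (60%, against 26.5% of protein-coding genes) and 6 had neither mark (20%, against 9.45%). H3K9Ac alone was at 5 (16.7%, against 55.3%) and H3K9me3 alone at 1, Krt32 (3.33%, against 3.52%).

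**Figure D4:**
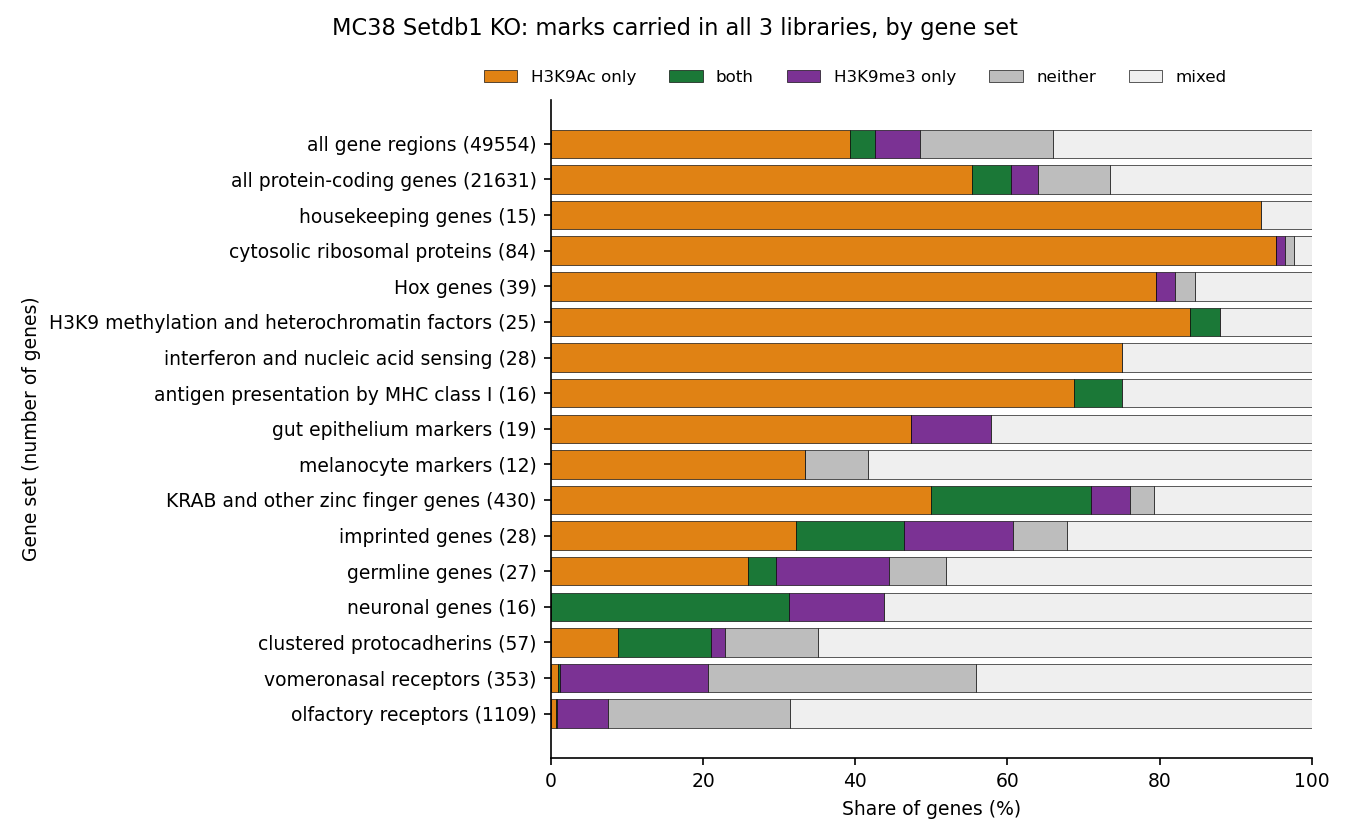
Bars give the share of genes of each set that carried H3K9Ac alone, both marks, H3K9me3 alone, neither, or a mixed pattern in MC38 Setdb1 KO cells, with the number of genes in parentheses. H3K9Ac alone fills 95.2% of the ribosomal protein bar and 0.631% of the olfactory receptor bar, and both marks fill 20.9% of the zinc finger bar.

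The label of a colon line was checked on marker genes, by the marks on their chromatin and not by expression. Of 19 gut epithelium markers 9 (47.4%) carried H3K9Ac alone, a share below the 55.3% of protein-coding genes, so the count does not set the gut list apart. They were the villus and adhesion genes Vil1 and Gpa33, the keratin genes Krt8, Krt18, Krt19 and Krt20, and the transcription factor genes Elf3, Cdx1 and Cdx2. Krt8 had 36.2, 36.0 and 24.5 RPM of H3K9Ac. Epcam had 10.4 and 12.9 RPM in replicates 1 and 3 and no island in replicate 2. The crypt stem cell receptor gene Lgr5 carried H3K9me3 alone, with 26.5, 101 and 48.9 RPM, as did the colonocyte carbonic anhydrase gene Car1, with 76.1, 103 and 108 RPM. Markers of other cells were found too: 9 of 12 fibroblast and mesenchymal markers (75%), 4 of 12 melanocyte markers (33.3%; Pmel, Sox10, Mitf and Mc1r) and 3 of 14 leukocyte markers (21.4%; Lyz2, Cd68 and Csf1r) carried H3K9Ac alone. Tyr and Dct, which encode pigment enzymes, had no H3K9Ac island in any library. Of 16 neuronal genes none carried H3K9Ac alone. H3K9me3 alone was at 2, Kcnq3 and Csmd1 (12.5%, against 3.52% of protein-coding genes), and both marks at 5 (31.2%, against 5.18%).

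H3K9me3 was uneven between chromosomes. Chromosome 3 held 12.7, 16.4 and 24.3% of the length under H3K9me3 islands, against 5.90, 6.77 and 6.95% of that under H3K9Ac. The H3K9me3 share was lowest in replicate 1 and highest in replicate 3, where 52.3 of 215 Mb lay on that chromosome. In the control cells it was 17.8, 18.3 and 16.3%. Of the 2925 genes with H3K9me3 alone 485 (16.6%) were on chromosome 3, which has 4.97% of all genes. These are 19.7% of the genes on that chromosome, and Chil3, Chil4, Chia1, Vmn2r3, Car1 and Sycp1 are among them. Whether the number of copies of chromosome 3 moves with these shares was not tested, since the input libraries were not analysed here. The X chromosome held little of either mark, with 0.406, 0.476 and 0.174 Mb of H3K9me3 and 2.46, 2.82 and 1.76 Mb of H3K9Ac. Of its 2512 genes 1947 (77.5%) carried neither mark, against 17.5% of all gene regions. The 3 longest genes with neither mark and an established name are among these 1947: the teneurin gene Tenm1, the transcription cofactor gene Dach2 and the protocadherin gene Pcdh11x.

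**Figure D5:**
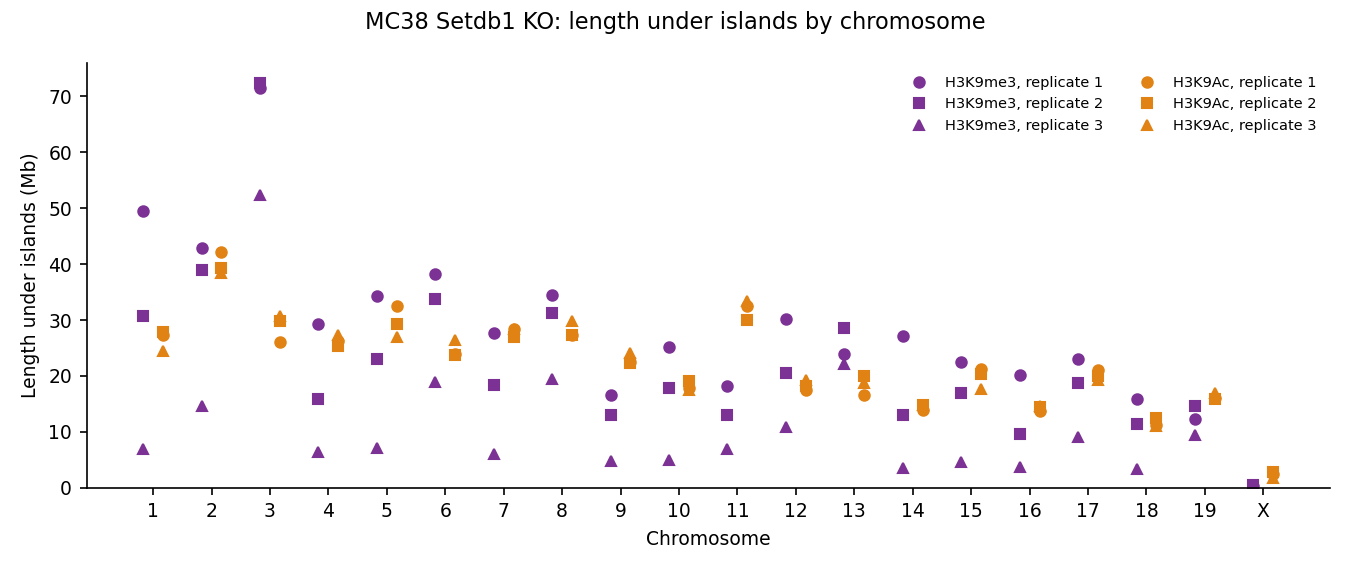
Length under islands on each chromosome in Mb, with 1 point per library (shaped by replicate) and a colour per mark. Chromosome 3 holds 52.3 to 72.4 Mb of H3K9me3 and 26.03 to 30.7 Mb of H3K9Ac, and chromosome X holds under 3 Mb of either.

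The difference between the marks was compared between KO and control cells, with 3 values against 3, a design that cannot give a p below 0.1. The values subtract libraries of the same number, although the numbers were not found to pair the libraries, so their spread depends on that choice. The difference in the share of gene regions with an island, H3K9me3 minus H3K9Ac by replicate number, was -32.7, -24.9 and -37.2 percentage points in the KO and -29.7, -25.8 and -31.4 in the control cells (exact permutation p = 0.5), with a difference between them of -2.63 points that was 0.16 without KO replicate 3. The same difference in median island length was 667 ± 503 bp (SD, n = 3) in the KO and 133 ± 808 bp in the control (exact permutation p = 0.4). Against B16 Setdb1 KO cells, the gene share gave -27.8, -21.4 and -24.2 points (exact permutation p = 0.2). Island reads per kb gave a difference between marks of -21.6, -30.7 and 23.8 in MC38 KO. In B16 KO it was -111, -120 and -48.4, without overlap (exact permutation p = 0.1, the smallest possible, not adjusted over the measures compared). No other measure reached 0.1. The B16 KO H3K9Ac libraries held 78082966, 75664167 and 46527837 island reads over 448, 443 and 437 Mb. Those of MC38 KO held 45082277, 40860632 and 28451633 over 441, 440 and 442 Mb. Whether the difference moves with depth was not tested.

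Most genes were in the same class in the control cells. Of the genes with H3K9Ac alone in the KO, 17431 of 19492 (89.4%) had it alone in the control, where 18723 did. For H3K9me3 alone 2250 of 2925 (76.9%) did, which is 53.2% of the 4230 such genes in the control, and for both marks 1360 of 1616 (84.2%), which is 59.0% of 2305. No gene went between H3K9me3 alone and H3K9Ac alone in either direction. Of the genes with both marks in the control, 62 had H3K9Ac alone in the KO and 5 had H3K9me3 alone. Of those with H3K9me3 alone in the control, 44 had neither mark in the KO, and 21 went the other way; most other changes were to or from the mixed class, 1930 of them from H3K9me3 alone in the control to mixed in the KO. In the KO the count with H3K9me3 alone moved most without H3K9me3 replicate 3 and the count with both marks most without replicate 1, and the change in class was not tested. Of the zinc finger genes, 109 carried both marks in the control against 90 in the KO. Over all protein-coding genes the counts also fell, from 1606 in the control to 1120 in the KO, so the fall is not particular to zinc finger genes. H3K9me3 islands were at 176, 207 and 178 zinc finger genes in the control libraries and at 144, 179 and 166 in the KO libraries, which overlap. Over protein-coding genes the shares were 21.9, 25.7 and 22.1% in the control and 19.6, 24.1 and 18.2% in the KO. In B16 KO cells 1387 genes shared the class H3K9me3 alone, 47.4% of those in MC38 KO and 26.9% of the 5156 in B16 KO.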

How the data were processed

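ChIP-seq of H3K9me3 and H3K9Ac was analysed in 3 libraries each from MC38 Setdb1 KO cells, with 3 each from MC38 control and B16 Setdb1 KO cells for comparison. Each deposited file lists islands with a read count per island; the values are raw counts, per the file contents. The submitters' processing notes name cutadapt, Bowtie2 2.1.0, SAMtools 0.1.8, SICER 1.1 and deepTools 3.1.1, and the build mm10; which settings were used, and whether islands were called against input, is not given in the sources used here. Islands depend on library depth, so a gene without an island may still have reads. The 4 input samples were not analysed here.

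Islands on chromosomes 1 to 19 and X were laid over 49554 genes of RefSeq GRCm38.p6, of which 26794 have a known start and strand. Reads of an island were apportioned to gene regions (gene with 2 kb on both sides) by length and rounded. Library summaries were compared by exact two-sided permutation tests (scipy 1.17.1), and gene regions with a mean of at least 10 island reads by edgeR 4.0.16 (quasi-likelihood, library size the total of island reads, no further scaling), with DESeq2 1.42.0 as an alternative; the edgeR step was tested on simulated data. Alternatives were the overlap that counts, the flank, stricter islands, scaling, the count filter, a replicate block and leaving out each library.

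Genes named by rule are protein-coding with an established symbol. They are the 6 with the highest RPM per kb in each single-mark class, the 6 of the class with both marks ranked highest by the weaker of their 2 ranks, and the 3 longest with neither. Added to them are up to 2 members of each list by the smallest edgeR p in each direction, and Setdb1, Trim28, Actb and Gapdh. Some genes that the rule names are not reported here. Further list members are named to describe their list, after their values were seen. The members and gene lists were chosen with earlier results of these data known.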

Additional observations from a re-analysis of the deposited data

How the results depend on the processing

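Leaving out each library in turn gave ranges of the H3K9me3 minus H3K9Ac difference of -15134 to 2877 for the number of islands, -534 to 533 bp for mean island length, -112 to 61.7 Mb for covered length and -0.523 to 1.30 percentage points for the share of length under the other mark. Each of these changed sign in at least 1 case, and the mean length also with stricter islands (-53.9 bp). The share of gene regions with an island stayed between -33.8 and -29.4 points, and the share covered by at least 50% between -25.2 and -21.9. The mark difference in the KO against the control ranged from -56.4 to 118 Mb for covered length and from -5.98 to 0.159 points for the gene share, and against B16 KO from -71.1 to 103 Mb for covered length, also changing sign (-10.8 and -10.1 Mb in the other such cases). With 3 libraries a group or fewer, the exact tests of these summaries cannot give a p below 0.1, so their p-values say nothing about stability.

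Class counts without 1 library were 3000 to 5744 for H3K9me3 alone, 19653 to 20576 for H3K9Ac alone, 1669 to 2431 for both and 9025 to 10854 for neither. H3K9me3 alone, H3K9Ac alone, both and neither were 1144, 12533, 0 and 22359 when 50% of the region had to be covered, 775, 12899, 51 and 5580 at the start window, and 762, 11972, 1120 and 2044 over protein-coding genes. The class with both marks was 3304 with 10 kb flanks and 820 with stricter islands, and neither was 4591 with 10 kb flanks and 15267 with no flank. With a mark required in at least 2 of 3 libraries, a rule chosen after seeing the data, H3K9me3 alone was 7507, both 3562 and neither 14933.

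The edgeR counts ranged from 3217 to 5756 for more H3K9me3 and from 19166 to 20718 for more H3K9Ac without 1 library. DESeq2 called 7406 with more H3K9me3. With a replicate block the counts were 1352 and 10392. Deviations of same-numbered libraries of the 2 marks correlated at 0.02, -0.16 and 0.10, so the numbers were not taken to pair the samples. TMM scaling moved the median log2 ratio of all regions from -9.87 to -9.97. Of 76 named genes called, 15 did not pass with the block. Without 1 library the log2 ratio ranged from -0.058 to 1.33 at Zfp738, from -0.79 to 0.65 at Zfp932, from -0.29 to 0.91 at Cib3 and from -0.20 to 0.54 at Kdm4d, with the sign changed without H3K9me3 replicate 3 at the first 3 genes, also without H3K9Ac replicate 1 at Cib3 (-0.10), and without H3K9me3 replicate 2 at Kdm4d. TMM turned the sign at Zfp932 (-0.34) and Kdm4d (-0.11), and the block at Zfp932 (-0.17). The cause was not tested. Islands list no reads outside them, so depth limits what a gene without an island shows.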
